A study of Mus musculus with 6 samples.

Results

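The genes described here mark how far a retinal progenitor cell (RPC) has moved along its developmental schedule. They are 10 mouse genes chosen by name: Lin28a, Lin28b, Hmga2, Igf2bp1, Igf2bp2, Igf2bp3, Casz1, Nfia, Nfib and Nfix. Every probe set whose platform annotation gives 1 of these symbols was taken, which made 39 of the 45037 probe sets tested and covered 9 of the 10 genes. No probe set was named Igf2bp2, so this gene was not analysed here. The mutant group held 3 pools of RPCs from embryos labelled Pax6 flox alpha-Cre, whose genotype the methods write as Pax6 loxP/loxP;α-Cre. The control group held 3 pools labelled alpha-Cre, with both Pax6 alleles intact. All 6 pools came from E12 embryos of the ICR background and carried the α-Cre transgene, which expresses Cre and GFP in the distal retina and not in its centre, and which can stay inactive in some distal RPCs. Eyes were dissociated and the GFP-positive cells sorted, several embryos contributed to each pool, and each pool was hybridised to 1 array.

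Progenitors of the early retina express genes that are switched off as development goes on. The RNA-binding proteins LIN28A and LIN28B bind the precursors of let-7 microRNAs and block their maturation. The let-7 family in turn represses the mRNAs of Hmga2, Lin28a, Lin28b and the Igf2bp genes through their 3′ ends, so that the proteins of young progenitors and the microRNAs of old ones oppose each other. Casz1, a zinc finger gene related to castor of Drosophila, and the nuclear factor I genes Nfia, Nfib and Nfix belong to later progenitors of the mouse retina. NFI factors favour cell cycle exit and the making of bipolar neurons and Müller glia.

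The mature let-7 sequences are shown because their shared seed, bases 2 to 8 in capitals, is the part that pairs with Hmga2, Lin28 and Igf2bp mRNAs. The sequences are those of RefSeq on GRCm38.p6, 5′ to 3′:
mmu-let-7a-5p: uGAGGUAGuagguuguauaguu
mmu-let-7b-5p: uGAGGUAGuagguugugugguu
mmu-let-7c-5p: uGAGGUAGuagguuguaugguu
mmu-let-7d-5p: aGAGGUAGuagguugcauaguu
mmu-let-7e-5p: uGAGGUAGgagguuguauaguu
mmu-let-7f-5p: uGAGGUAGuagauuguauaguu
mmu-let-7g-5p: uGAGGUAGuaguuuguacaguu
mmu-let-7i-5p: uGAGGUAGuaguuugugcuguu
mmu-miR-98-5p: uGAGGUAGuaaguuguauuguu
The seed GAGGUAG was found in 11 of the 1679 mature mouse miRNA names of the table. The sequences shown differ only outside it. The genes for let-7a-5p (Mirlet7a-1, chr13:48538239-48538260), let-7f-5p (Mirlet7f-1, chr13:48537889-48537910) and let-7d-5p (chr13:48536078-48536099) lie in a cluster on the minus strand of chromosome 13.

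Further miRNAs of late retinal progenitors are shown for their different seeds, since miR-125 also targets Lin28 mRNAs and miR-9 acts with let-7 on progenitor timing:
mmu-miR-125a-5p: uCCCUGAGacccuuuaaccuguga
mmu-miR-125b-5p: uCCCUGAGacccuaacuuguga
mmu-miR-9-5p: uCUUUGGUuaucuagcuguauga
The gene of miR-125a-5p (chr17:17830817-17830840) lies beside that of let-7e-5p (chr17:17830366-17830387), both on the plus strand. The arrays measure mRNA and not mature miRNAs, so no level of these sequences is given.

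The values are log2 intensities after RMA, a method that corrects the background, normalises between arrays and summarises the probes of a probe set. Array medians lay between 3.68 and 3.71. Arrays correlated at 0.9966 to 0.9970 within the mutant group, 0.9953 to 0.9959 within the control group and 0.9908 to 0.9932 between the groups. Calls required that mutant and control differ at least 1.5-fold (0.58 on the log2 scale), with p under 0.05 and a limma adjusted p under 0.10. Of all probe sets, 2.65% were called. Of the 5 probe sets of Pax6, 1425960_s_at had log2 intensities of 4.79, 4.88 and 4.45 on the mutant arrays, against 6.34, 6.44 and 6.14 on the control arrays, and fell (log2 fold change of -1.60, adjusted p = 0.00329). The other 4 were not called, and the brightest differed by -0.11. Which of them cover the deleted exons was not determined here. All 12 measured RPC markers were above the array median on at least 1 array.

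None of the 39 probe sets of the temporal identity genes was called in Pax6-deficient RPCs. Their log2 fold changes, mutant minus control, ran between -0.43 and 0.32 with a median of -0.01, against a median of -0.02 over all probe sets. The 95% interval of the log2 fold change lay inside a change of 1.5-fold either way for 36 of the 39, against 39428 of the 45037 probe sets of the array. The exceptions were 1 probe set each of Hmga2, Igf2bp1 and Casz1. An adjusted p under 0.10 without regard to fold was reached by 4 of the 39, 3 higher and 1 lower, which is 10.3% beside 9.59% of all probe sets. The mutant and control arrays did not overlap for 10 of the 39, 4 higher and 6 lower, which is 25.6% beside 28.2% of all probe sets. Both shares were near those of the whole array. An unadjusted p under 0.05 was reached by 8 of the 39, against 9390 of the 45037 (20.8%). A bulk measurement cannot tell fewer cells of a type from less RNA in each cell, and this holds for every value below.

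**Figure D1:**
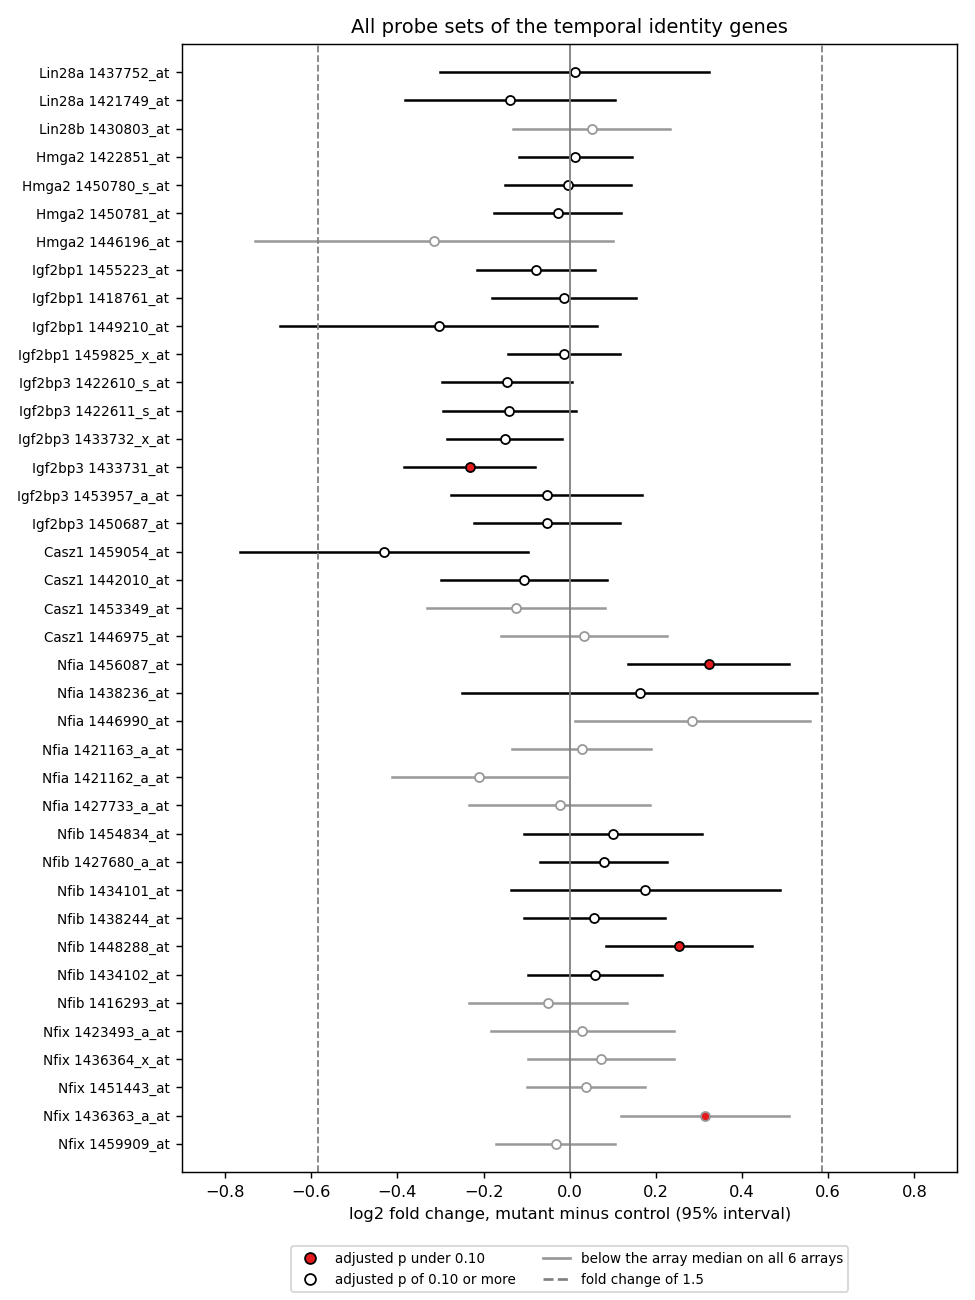
Log2 fold change of each of the 39 probe sets (mutant minus control, x axis) with its 95% interval from limma, ordered by gene and then by brightness. Filled red points mark an adjusted p under 0.10, grey lines mark probe sets below the array median on all 6 arrays, and dashed lines mark a fold change of 1.5: 36 of the 39 intervals lie between the dashed lines.

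The levels of the 9 genes covered most of the range of the array, although different probe sets bind with different strength and their intensities cannot be ranked as amounts of RNA. On all 6 arrays, 22 of the 39 probe sets lay above the array median and 14 below it. All 5 probe sets of Nfix and the only one of Lin28b were among those below the median. The RMA values carry no detection call, so an interval around 0 for such a dim probe set limits the change in intensity and says little of the mRNA.

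Lin28a and Lin28b, the let-7 antagonists, stand first in the pathway, and their probe sets lay between slightly above the array median and close to the floor of the arrays. The brighter probe set of Lin28a, 1437752_at, read 4.60, 4.54 and 4.66 in mutant RPCs, against 4.86, 4.31 and 4.59 in control RPCs. The mutant values lay within the spread of the control values, and the log2 fold change was 0.01 (95% interval -0.30 to 0.32, adjusted p = 0.973). The other, 1421749_at, read 3.73, 3.56 and 3.71 in mutant RPCs and 3.85, 3.96 and 3.60 in control RPCs, a difference of -0.14 (95% interval -0.38 to 0.10, adjusted p = 0.498). The groups overlapped here too, and this probe set was near the array median. Lin28b was read by 1430803_at at 1.84, 2.03 and 2.03 in mutant RPCs, against 1.92, 1.85 and 1.99 in control RPCs. The lowest intensities of the arrays were 1.30 to 1.41, so this probe set was close to the floor, and the log2 difference was 0.05 (95% interval -0.13 to 0.23, adjusted p = 0.753).

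Hmga2, a chromatin protein with AT hooks that keeps young neural progenitors self-renewing, was bright on every array and had nearly the same level in both genotypes. Probe set 1422851_at read 10.28, 10.27 and 10.23 in mutant RPCs, against 10.26, 10.26 and 10.23 in control RPCs. The log2 fold change was 0.01 with a standard error of 0.06 (95% interval -0.12 to 0.14, adjusted p = 0.921). Probe set 1450780_s_at read 9.47, 9.46 and 9.49 in mutant RPCs and 9.56, 9.43 and 9.45 in control RPCs, with overlapping groups. Probe set 1450781_at read 8.19, 8.27 and 8.21 in mutant RPCs and 8.32, 8.21 and 8.22 in control RPCs, a difference of -0.03 (adjusted p = 0.84). The 3 bright probe sets of Hmga2 thus all differed by less than their standard errors. The fourth, 1446196_at, was below the array median on all arrays, at 2.48, 2.29 and 2.08 in mutant RPCs and 2.60, 2.27 and 2.93 in control RPCs, and its 95% interval of -0.73 to 0.10 is wide.

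The Igf2bp genes encode RNA-binding proteins that hold and stabilise mRNAs of the growing embryo, and all are repressed by let-7. Their 10 probe sets, 4 of Igf2bp1 and 6 of Igf2bp3, were above the array median on all arrays. None was called, and all 10 log2 fold changes were below 0, with a median of -0.11, beside 55.7% of all probe sets below 0 and a median of -0.02. Probe sets of 1 gene read the same RNA of the same 6 pools and are not independent of each other.

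Igf2bp1 differed little. Its brightest probe set, 1455223_at, read 8.69, 8.77 and 8.70 in mutant RPCs, against 8.83, 8.78 and 8.79 in control RPCs. The groups did not overlap, but by a margin smaller than the spread within either group, and the difference was -0.08 (95% interval -0.21 to 0.06, adjusted p = 0.502). Probe set 1418761_at read 7.86, 7.95 and 7.89 in mutant RPCs and 8.00, 7.93 and 7.81 in control RPCs. Probe set 1459825_x_at read 7.14, 7.10 and 7.15 in mutant RPCs and 7.15, 7.15 and 7.12 in control RPCs. Both differed by -0.01, well within the spread between arrays. The noisiest was 1449210_at, with 7.18, 7.71 and 7.35 in mutant RPCs and 7.77, 7.49 and 7.89 in control RPCs, a difference of -0.30 whose 95% interval runs from -0.67 to 0.06 (adjusted p = 0.324).

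For Igf2bp3, 4 of the 6 probe sets read slightly lower in Pax6-deficient RPCs, each without overlap between the groups, which 15.1% of all probe sets also had in this direction. Probe set 1422610_s_at read 9.23, 9.29 and 9.13 in mutant RPCs, against 9.37, 9.35 and 9.37 in control RPCs (a log2 difference of -0.15 with a standard error of 0.06, adjusted p = 0.256). Probe set 1422611_s_at read 8.31, 8.18 and 8.27 in mutant RPCs and 8.42, 8.43 and 8.33 in control RPCs (-0.14, adjusted p = 0.278). Probe set 1433732_x_at read 8.04, 8.00 and 8.07 in mutant RPCs and 8.21, 8.18 and 8.18 in control RPCs (-0.15, adjusted p = 0.187). These 3 had nearly the same size of difference and did not pass, although 1422610_s_at reached an adjusted p under 0.10 in 1 of 15 alternative fits and 1433732_x_at in 3 of 15. As fitted here, 1433731_at was the only Igf2bp probe set with an adjusted p under 0.10, with 6.73, 6.78 and 6.80 in mutant RPCs, against 6.99, 7.09 and 6.94 in control RPCs. Its log2 fold change of -0.23 (95% interval -0.38 to -0.08, adjusted p = 0.0931) was below the minimum fold for a call. The remaining pair, 1453957_a_at and 1450687_at, overlapped between genotypes and each differed by -0.05. The plot of the Igf2bp3 and Nfia arrays shows these values relative to the control mean.

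Casz1, a transcription factor gene of mid and late progenitors, had the lowest log2 fold change of the 39 probe sets. Its brightest probe set, 1459054_at, read 5.44, 5.47 and 5.13 in mutant RPCs, against 5.54, 5.79 and 6.01 in control RPCs. All 3 mutant values were below all 3 control values, the closest 2 arrays being 5.47 and 5.54. The log2 fold change was -0.43 with a standard error of 0.14 (95% interval -0.77 to -0.10, adjusted p = 0.142), which did not pass. This interval reaches beyond a fold of 1.5, so the arrays leave a fall of that size within their error. In 3 of 15 alternative fits this probe set reached an adjusted p under 0.10, and its sign was the same in all 15. The other 3 probe sets of Casz1 were near or below the array median. Of these, 1442010_at read 3.63, 3.87 and 3.64 in mutant RPCs and 3.80, 3.86 and 3.79 in control RPCs, a difference of -0.11, and 1453349_at and 1446975_at differed by -0.13 and 0.03. The 4 probe sets do not all have the same sign.

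**Figure D2:**
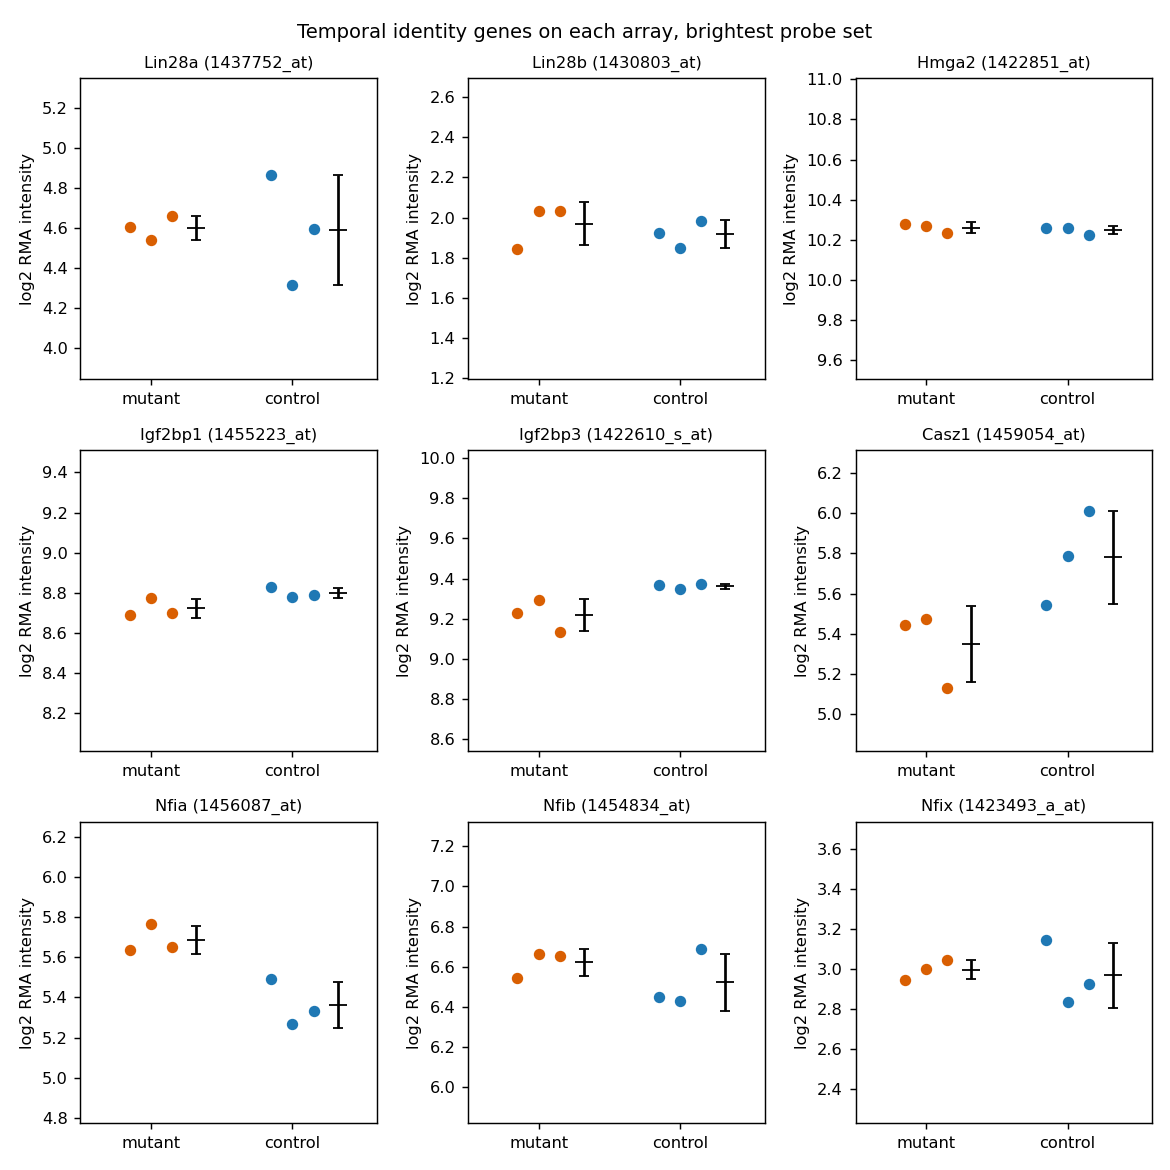
Log2 RMA intensity on each array (y axis, the same span in every panel) for the brightest probe set of each of the 9 genes, mutant in orange at left and control in blue at right. Black bars mark the group mean with its SD (n = 3): Nfia is the only gene here with an adjusted p under 0.10, and Casz1 has the widest gap below the control arrays.

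The nuclear factor I genes, which turn on in older progenitors, were not called in any of their 18 probe sets. Of these 10 were below the array median on all arrays. The log2 fold change was positive for 14 and negative for 4, with a median of 0.07, beside 44.3% of all probe sets above 0. An adjusted p under 0.10 was reached by 3 of the 18, 1 of each gene and all higher in mutant RPCs, beside 5.04% of all probe sets in this direction. Mutant and control arrays did not overlap for 4 of the 18, all higher, beside 5926 of the 45037 probe sets in this direction. The difference between the NFI and the Igf2bp genes was not tested.

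Of these, Nfia had the lowest adjusted p. Its brightest probe set, 1456087_at, read 5.64, 5.77 and 5.65 in mutant RPCs, against 5.49, 5.27 and 5.33 in control RPCs. The groups did not overlap, and the log2 fold change was 0.32 with a standard error of 0.08 (95% interval 0.14 to 0.51, adjusted p = 0.067). The upper bound is below the minimum fold for a call. Only this probe set of the 6 was above the array median on all arrays. Probe set 1438236_at, close to the median, read 3.85, 3.94 and 3.26 in mutant RPCs and 3.45, 3.45 and 3.65 in control RPCs, so that mutant array 3 was the lowest and the other 2 the highest (0.16, adjusted p = 0.649). The dim 1446990_at read 3.56, 3.67 and 3.37 in mutant RPCs and 3.35, 3.04 and 3.35 in control RPCs (0.28, adjusted p = 0.224). The other 3 were dim as well, and differed by 0.03, -0.02 and -0.21, the last of these in 1421162_a_at with an adjusted p of 0.226. The probe sets of Nfia therefore did not share 1 direction.

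**Figure D3:**
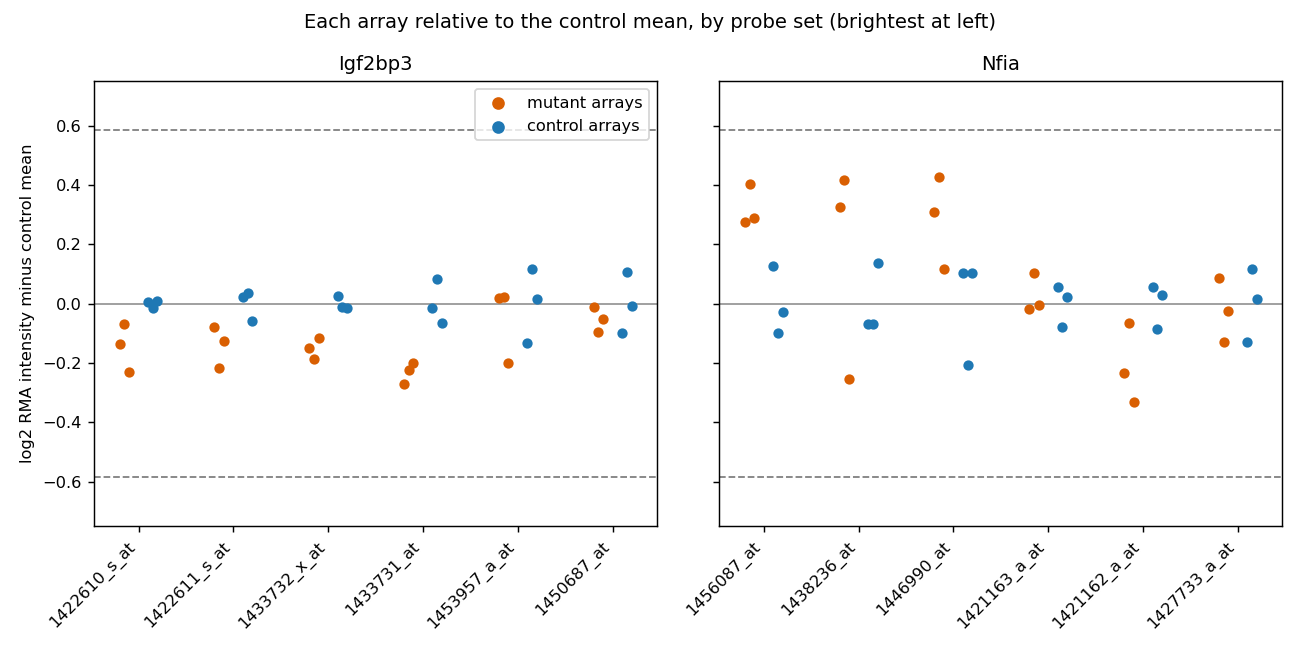
Log2 RMA intensity of each array minus the mean of the control arrays (y axis) for the 6 probe sets of Igf2bp3 and the 6 of Nfia (x axis, brightest at left), with mutant arrays in orange and control arrays in blue. Dashed lines mark a fold change of 1.5, which no array reaches. In 4 of the 6 probe sets of Igf2bp3 all mutant arrays are lower, as in 6790 of the 45037 probe sets of the array. In 2 of the 6 of Nfia all mutant arrays are higher, as in 5926 of the 45037.

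Nfib had 6 of 7 probe sets above the array median. The brightest, 1454834_at, read 6.54, 6.67 and 6.66 in mutant RPCs, against 6.45, 6.43 and 6.69 in control RPCs (0.10, 95% interval -0.11 to 0.31, adjusted p = 0.569). Probe set 1427680_a_at read 6.62, 6.54 and 6.55 in mutant RPCs and 6.46, 6.46 and 6.56 in control RPCs (0.08, adjusted p = 0.526). In both, control array 3 lay within or above the mutant values. Only in 1448288_at did the groups separate, with 4.99, 5.09 and 5.03 in mutant RPCs and 4.68, 4.81 and 4.87 in control RPCs (0.25, 95% interval 0.08 to 0.42, adjusted p = 0.0995). The other 4 probe sets differed by 0.18, 0.06, 0.06 and -0.05.

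Nfix was below the array median in all 5 probe sets on all 6 arrays. Its brightest, 1423493_a_at, read 2.95, 3.00 and 3.05 in mutant RPCs, against 3.14, 2.83 and 2.92 in control RPCs, with overlapping groups (0.03, adjusted p = 0.888). Probe set 1436363_a_at read 2.92, 2.78 and 2.77 in mutant RPCs and 2.38, 2.62 and 2.53 in control RPCs (0.31, adjusted p = 0.0818). The groups of this probe set did not overlap, but the remaining 3 differed by 0.07, 0.04 and -0.03.

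Nfic, the fourth gene of the family and not among the 10, was named after its values were seen. Its brightest probe set, 1435527_at, read 7.08, 7.15 and 7.03 in mutant RPCs, against 6.73, 6.85 and 6.79 in control RPCs. The groups did not overlap, and the log2 fold change of 0.30 (95% interval 0.14 to 0.45, adjusted p = 0.049) was under the minimum fold. Its other 4 probe sets were near or below the array median and went both ways, with log2 fold changes of 0.35, 0.11, -0.01 and -0.37, the first and the last of these without overlap between the groups, and none was called.

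NFI genes are also used outside the neural retina, and markers of non-retinal cells were higher in the mutant pools. The summed linear intensity of 14 periocular mesenchyme markers was 1023 to 1418 on mutant arrays, against 669 to 716 on control arrays, and 6 of the 14 rose. For 12 endothelial markers it was 1432 to 1528 in mutant pools and 858 to 1107 in control pools, and 5 rose. For 16 lens and surface ectoderm markers it was 5161 to 5465 in mutant pools and 2871 to 4040 in control pools, and 4 rose. The 3 sums did not overlap between the genotypes. The 14 pigment epithelium markers (11189 to 11277 in mutant pools, 7166 to 8760 in control pools, 7 rose) and the 13 blood markers (12366 to 13154 in mutant pools, 8833 to 11807 in control pools, 1 rose) were higher as well. Over all genes, 2.28% were called higher by their brightest probe set. RMA gives no zeros. Of the lens, mesenchyme, pigment epithelium and blood markers 2 each were below the array median on all arrays, and no endothelial marker was. The part of these cells in the NFI values was not tested.

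Genes around the LIN28 and let-7 axis were read next, each by its brightest probe set. Of all 18193 genes, 2.28% were called higher and 0.918% lower, with a median log2 fold change of -0.01. The 21 genes that make or act with let-7 and its partners held no call in either direction, and their median was -0.06. An unadjusted p under 0.05 was reached by 7 of the 21, beside 24.4% of all genes, and an adjusted p under 0.10 by 4, beside 12.4%. The brightest were Tnrc6a, a scaffold of the silencing complex, at 9.63 ± 0.08 in mutant and 9.47 ± 0.14 in control RPCs (SD, n = 3 each), and the RNA helicase gene Dhx9, at 9.57 ± 0.04 in mutant and 9.66 ± 0.08 in control RPCs (SD, n = 3 each). Neither passed (adjusted p = 0.368 and 0.501), nor did Syncrip, an RNA-binding protein gene, which differed by -0.05 (adjusted p = 0.68). Named after their values were seen, machinery genes with an adjusted p under 0.10 and a change below 1.5-fold were Dgcr8 (-0.27) and Xpo5 (-0.25), which process and export miRNA precursors, and the Argonaute gene Ago1 (-0.23).

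The fourth was Trim71, the mouse counterpart of the worm heterochronic gene lin-41 and a let-7 target of early embryos. Its brightest probe set, 1453599_at, read 4.93, 5.17 and 5.17 in mutant RPCs, against 5.62, 5.59 and 5.73 in control RPCs. The groups were clearly apart, and the log2 fold change of -0.55 (95% interval -0.76 to -0.35, adjusted p = 0.0185) just missed the minimum fold. Its second probe set, 1456673_at, singled out after its values were seen, read 4.17, 4.29 and 4.52 in mutant RPCs and 5.44, 5.20 and 5.42 in control RPCs, and it fell (-1.03, adjusted p = 0.0066). The median of both probe sets was called too, at -0.79. Leaving out mutant array 2 or mutant array 3 carried the brightest probe set past the fold (-0.59 and -0.60).

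Of the let-7 targets outside the 10 genes, Trim71 included, 27 of 30 listed were measured, with 2 higher, 2 lower and 23 not called, at a median of -0.04. Of all genes, 2.28% were called higher and 0.918% lower. An adjusted p under 0.10 was reached by 10 of the 27, beside 12.4% of all genes. The cyclin gene Ccnd2 rose to 10.63 ± 0.09 in mutant RPCs, against 9.99 ± 0.04 in control RPCs (SD, n = 3 each). Thbs1, a secreted matrix protein gene that endothelium and mesenchyme also use, rose to 7.59 ± 0.09, against 6.38 ± 0.36 in control RPCs (SD, n = 3 each). Both were called at adjusted p = 0.0066 and 0.0128, but Thbs1 was not without moderation of the variance (adjusted p = 0.113). The proto-oncogene Mycn fell to 7.66 ± 0.10 in mutant RPCs, against 8.57 ± 0.14 in control RPCs (SD, n = 3 each, adjusted p = 0.00521), although the median over its probe sets differed by only -0.14 and was not called. Nr2e1, an orphan nuclear receptor gene of neural stem cells, fell by 1.06 on the log2 scale (adjusted p = 0.00668). Calls thus went both ways among the let-7 targets. Ccnd2 is also 1 of 10 ciliary margin markers, whose sums, Ccnd2 included, were 4794 to 4985 on mutant and 3999 to 4069 on control arrays. Of these 10 markers 3, Ccnd2 itself among them, were called higher and 0 lower. The median log2 fold change of the 10 was 0.09, and the lowest was -0.40. Because the sums contain Ccnd2, they are not independent of its rise. The part of ciliary margin cells in the rise of Ccnd2 was not tested.

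The mRNAs that IGF2BP proteins bind were 12 measured of 15 listed, including Lin28b and Hmga2, with a median of 0.03. An adjusted p under 0.10 was reached by 3 of the 12, beside 12.4% of all genes. Among the 12 only Cd44, a hyaluronan receptor gene, was called, beside 2.28% of all genes called higher. It read 5.52 ± 0.14 in mutant and 4.60 ± 0.25 in control RPCs (SD, n = 3 each, log2 fold change of 0.92, adjusted p = 0.0147). Without moderation of the variance this call was lost too (adjusted p = 0.115). Mesenchyme also expresses Cd44, and its marker sums are given above. Igf2 itself, the growth factor gene after which the family is named and singled out after its values were seen, read 11.47, 11.46 and 11.37 in mutant RPCs, against 11.06, 11.24 and 11.14 in control RPCs. The groups did not overlap, but the log2 fold change of 0.28 (adjusted p = 0.0696) was under the minimum fold.

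**Figure D4:**
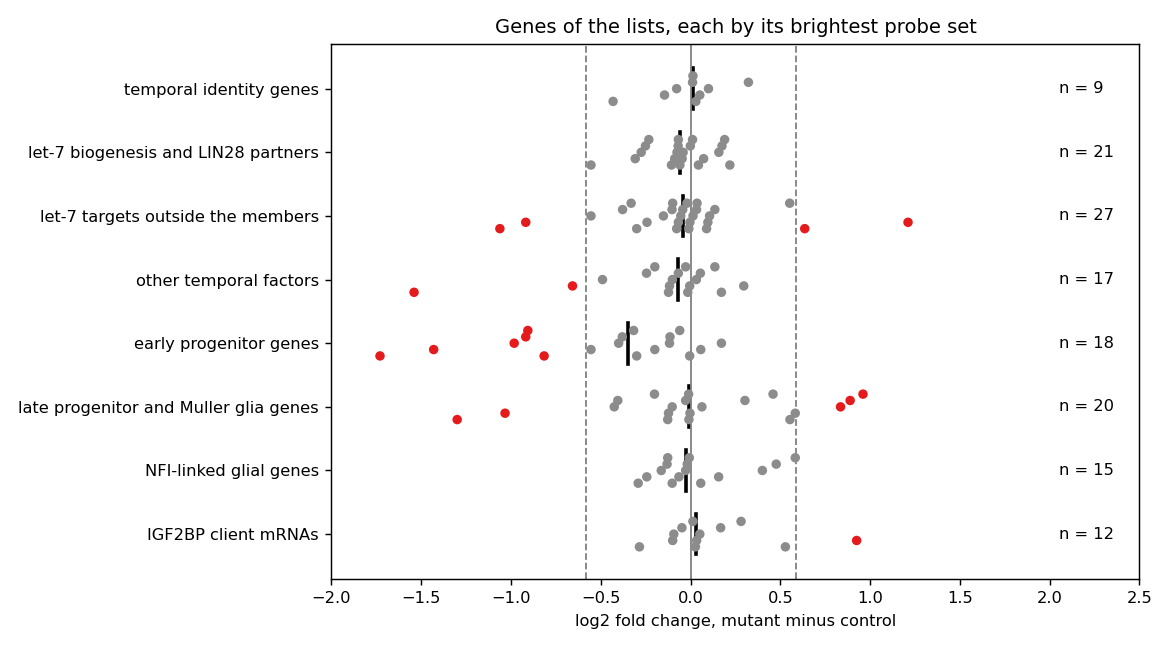
Log2 fold change (mutant minus control, x axis) of each measured gene by its brightest probe set, for the 9 temporal identity genes and 7 lists of related genes, with n the number measured. Red points were called, black bars are medians and dashed lines mark a fold change of 1.5: the temporal identity genes hold no red point, and the early progenitor list has the lowest median, -0.35.

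Other factors tied to developmental timing, mostly transcription factors, were 17 measured of 19 listed, with none higher and 2 lower, at a median of -0.07. Of all genes, 2.28% were called higher and 0.918% lower. An adjusted p under 0.10 was reached by 5 of the 17, beside 12.4% of all genes. Foxn4, which gives progenitors competence for amacrine and horizontal cells, read 7.05, 7.03 and 7.18 in mutant RPCs, against 7.57, 7.93 and 7.73 in control RPCs, and fell (log2 fold change of -0.66, adjusted p = 0.0178). Without control array 2 its log2 fold change was -0.56, under the minimum fold, and without moderation of the variance its adjusted p was 0.113. Onecut2, a gene of horizontal and ganglion cell precursors, read 3.68, 4.77 and 4.49 in mutant RPCs, against 5.33, 6.04 and 6.20 in control RPCs, and fell (-1.54, adjusted p = 0.043). Its groups were well apart but variable, and the call was lost without control array 2 (adjusted p = 0.121), control array 3 (0.107) or mutant array 3 (0.104), and without moderation (0.198). The sums of 15 ganglion cell markers were 1417 to 1511 on mutant and 2446 to 3178 on control arrays. Atoh7, named after its values were seen, was the brightest of the 15, at 9.69 in mutant and 10.90 in control RPCs. It weighs most in these linear sums, and the paper lists it as a retinal Pax6 target with reduced expression. On all arrays 1 of these markers was below the array median. Of the 15, 6 were called lower and 0 higher, beside 0.918% and 2.28% of all genes. The part of these markers in the fall of Onecut2 was not tested.

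Other genes listed for early progenitors held calls in 1 direction. Of 18 measured of 20 listed, 6 were lower and none higher, beside 0.918% and 2.28% of all genes. Their median was -0.35, and 10 of the 18 had an adjusted p under 0.10, beside 12.4% of all genes. Fgf15, a growth factor gene of proliferating RPCs, fell to 8.74 ± 0.04 in mutant RPCs, against 10.17 ± 0.12 in control RPCs (SD, n = 3 each, adjusted p = 0.00134). The Wnt modulator gene Sfrp2 fell to 10.68 ± 0.07, against 11.66 ± 0.07 in control RPCs (SD, n = 3 each, adjusted p = 0.00216). Foxd1, a forkhead gene of the temporal retina, fell by 0.91 on the log2 scale (adjusted p = 0.00521), the homeobox gene Dlx1 by 1.73 (adjusted p = 0.00202) and Mycn, above, by 0.92. The homeobox gene Dlx2 fell by 0.82 (adjusted p = 0.0856). That call was lost when any array but control array 1 was left out, at adjusted p between 0.169 and 0.22. It was also lost without moderation of the variance (0.267), with array number added to the fit (0.134) and with log2 of the value plus 16 (0.107). The ganglion cell marker sums given above, in which Atoh7 weighs most, were also lower. Their part in the fall of Dlx1 and Dlx2 was not tested. Hes1, a Notch effector gene on the same list, was not called (9.50 ± 0.02 in mutant and 9.44 ± 0.13 in control RPCs, SD, n = 3 each). Of the 12 RPC markers, 8 are on this same list, Sfrp2 and Fgf15 among them. The other 4, Pax6, Sox2, Mki67 and Pcna, summed to 5136 to 5258 on mutant arrays, against 5972 to 6248 on control arrays. By the brightest probe set none of the 4 was called. In each, all mutant arrays were below all control arrays, as in 15.1% of all probe sets. Mki67 (-0.36, adjusted p = 0.0296) and Pcna (-0.23, adjusted p = 0.087) had an adjusted p under 0.10, and Sox2 and Pax6 did not. Pax6 is the targeted gene, so its level does not measure the share of RPCs. Whether the early list fell more than the 9 temporal identity genes was not tested.

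Late progenitor and Müller glia genes went both ways. Of 20 measured of 22 listed, 3 were higher and 2 lower, beside 2.28% and 0.918% of all genes. Their median was -0.01, and 8 of the 20 had an adjusted p under 0.10, beside 12.4% of all genes. The cell cycle inhibitor gene Cdkn1c rose to 10.60 ± 0.02 in mutant RPCs, against 9.64 ± 0.09 in control RPCs (SD, n = 3 each, adjusted p = 0.00216). Rlbp1, which encodes a retinaldehyde-binding protein of Müller glia and pigment epithelium, rose by 0.89 on the log2 scale (adjusted p = 0.0344), and the carbonic anhydrase gene Car2 by 0.84 (adjusted p = 0.0308). Without mutant array 1 or mutant array 3 neither was called (adjusted p = 0.117 and 0.107 for Rlbp1, 0.105 and 0.103 for Car2), nor without moderation (0.171 for Rlbp1 and 0.162 for Car2). The pigment epithelium sums given above moved the same way, and their part in these 2 genes was not tested. The Notch target gene Hes5 fell to 6.85 ± 0.15, against 8.15 ± 0.32 in control RPCs (SD, n = 3 each, adjusted p = 0.00967), and Dkk3, a secreted dickkopf protein gene, fell by 1.03 (adjusted p = 0.00297).

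Genes that NFI factors regulate or accompany in glia were measured for all 15 of 15 listed, and none was called, with a median of -0.03. An unadjusted p under 0.05 was reached by 5 of the 15 and an adjusted p under 0.10 by 3, beside the 24.4% and 12.4% of all genes. The brightest was Gja1, a gap junction gene of glia that is also on the ciliary margin list. It read 10.65 ± 0.05 in mutant and 10.49 ± 0.05 in control RPCs (SD, n = 3 each, log2 fold change of 0.16, adjusted p = 0.209). Hes1, given above, is on this list too and was not called. The chromatin methyltransferase gene Ezh2 read 9.28, 9.23 and 9.30 in mutant RPCs, against 9.48, 9.54 and 9.66 in control RPCs. Its groups did not overlap, at a log2 fold change of -0.29 (adjusted p = 0.0596). The glutamate transporter gene Slc1a2 (0.48, adjusted p = 0.042) and Zcchc24 (0.40, adjusted p = 0.04) were the other 2 with an adjusted p under 0.10, named after their values were seen, and their changes were under 1.5-fold.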

How the data were processed

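Expression was measured on Affymetrix whole-genome mouse arrays, 1 per pool of sorted RPCs. The authors deposited linear intensities from RMA, run through RACE and Bioconductor; the submitters' notes also name the Affymetrix Expression Console. No tool version is given in the sources used here. Of 45101 probe sets 64 controls were left out. Log2 intensities were compared, mutant minus control, with limma 3.58.1 in R 4.3.3 (lmFit, eBayes, Benjamini-Hochberg adjustment over 45037 probe sets), and the code was tested on simulated data. The platform annotation gave 34945 probe sets 1 symbol, 932 several and 9160 none; only those with 1 symbol were named. A gene was represented by its brightest probe set (mean of the 6 arrays). All probe sets of the members were reported, some only by their difference, together with Pax6 and, of each list, the genes called or otherwise the 3 brightest. The RPC markers outside the early progenitor list were named because they make up their own sum. Other names are marked as chosen after their values were seen. The members, lists and rule were chosen with earlier results of these data known, so the lists are not independent evidence of a direction. Arrays have no read depth, and their number, 3 per group, limits the precision. The authors' tables of changed genes were not used. Alternatives covered scaling, offset, filter, variance model, SAM-type statistic, array weights, replicate block, leaving out each array, thresholds and the median over probe sets.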

Additional observations from a re-analysis of the deposited data

How the results depend on the processing

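No probe set of the temporal identity genes was called under any alternative that kept the fold minimum, leaving out each array included (0 to 0); with an adjusted p under 0.10 and no fold minimum, 4 probe sets and 1 gene were called. Over the whole array 1195 probe sets were called, against 4317 with no fold minimum, 517 with log2 of the value plus 16, 460 without moderation of the variance and 886 to 1232 with an array left out. The cause of these shifts was not tested. The 4 member probe sets with an adjusted p under 0.10 kept their sign in every alternative fit but reached that level in only some: 8 of 15 for Nfia 1456087_at, 7 of 15 for Igf2bp3 1433731_at, 5 of 15 for Nfib 1448288_at and 6 of 14 for Nfix 1436363_a_at. Near-zero differences changed sign: Lin28a was -0.0019 with array weights, -0.0019 after quantile normalisation, -0.064 by the median of its probe sets and -0.13 to 0.15 with an array left out; Hmga2 was -0.016 by the median of its probe sets; Nfix ran between -0.038 and 0.12 and Hes1 between -0.016 and 0.11 with an array left out. Of the members' values 152 kept side and sign, 7 reversed and 1, Nfia with no fold minimum, passed; of the other named genes' values 419 kept them, 24 lost the call, 6 gained one and 1 reversed. Without moderation the IGF2BP client list had 0 calls, the other temporal factors 0 and the late progenitor list 3. With an array left out the calls ran between 1 and 2 for the IGF2BP clients, 3 and 7 for the late progenitor list, 0 and 1 for let-7 biogenesis, 0 and 1 for the NFI-linked genes (1 without control array 3), 0 and 2 for the other temporal factors, 5 and 6 for the early progenitor list and 4 and 6 for the let-7 targets. Deviations of same-numbered mutant and control arrays correlated at -0.0106, -0.000638 and -0.00848. With 3 arrays per group these values cannot tell whether same-numbered pools shared a litter or batch, and the labels give only a number. With the replicate block 1136 probe sets were called over the array, 0 of the members, and 5 early progenitor genes in place of 6. Probe sets below the array median, 14 of the 39, limit what can be said of Lin28b and Nfix.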
